A study of Homo sapiens with 8 samples.

Results

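REST, the repressor that keeps neuronal genes silent outside neurons, was followed together with 8 genes that work with it or against it, in RNA-seq counts of the human neuroblastoma line SK-N-SH. The 9 genes are REST, the corepressor scaffolds RCOR1, RCOR2, RCOR3 and SIN3A, the phosphatases CTDSP1 and CTDSPL, and the splicing regulators SRRM3 and SRRM4. They were chosen by name from 60659 genes in the count table, with earlier results of these data known. All 9 had enough counts to be tested in every comparison. The 8 libraries form 4 groups of 2 biological replicates, and every group had received all-trans retinoic acid (ATRA) at 10 µM for 24 h, so no group shows these cells without ATRA. ZMYND8, the gene manipulated in the study, encodes a reader of histone acetylation. In the overexpression experiment, cells that carried doxycycline-inducible FLAG-ZMYND8 from a G418-selected lentiviral vector (ZMYND8 OE) were compared with parental cells, and both had received doxycycline (Dox). Parental cells are described without the vector and its selection, which therefore cannot be told apart from ZMYND8 itself. In the knockdown experiment, for which no Dox is named, cells with ZMYND8 knockdown (ZMYND8 KD) were compared with KD control cells. The construct used for knockdown in this line is not given in the sources used here. The labels call the cells neuroblastoma epithelial cells.

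REST is a zinc finger protein that binds RE1 elements in and near neuronal genes and brings enzymes that remove active histone marks. Its C-terminal end recruits RCOR1, also called CoREST, which carries the demethylase KDM1A and the deacetylases HDAC1 and HDAC2, and RCOR2 and RCOR3 are close relatives of that scaffold. Its N-terminal end recruits SIN3A, which carries deacetylases as well. CTDSP1 and CTDSPL are small phosphatases that act on the tail of RNA polymerase II, assist REST at its targets and protect it from degradation, and their introns hold the microRNAs MIR26B and MIR26A1. SRRM4 and SRRM3 promote the inclusion of short neuronal exons, and SRRM4 can turn REST transcripts into the truncated form REST4, which represses poorly. Counts per gene do not tell REST4 from full-length REST, and they measure RNA and not protein.

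Libraries held 38316523 to 56256979 counts on genes. ZMYND8 had 3089 and 3612 counts in the parental libraries, 220691 and 182849 in ZMYND8 OE, 3128 and 3374 in KD control, and 1641 and 1640 in ZMYND8 KD, so each group had the level its label names. Normalized counts below were scaled with TMM factors to a common library size, and RPKM are these counts per kilobase of exon, scaled to library size. In such bulk RNA, fewer cells of a type and less RNA per cell cannot be told apart. The summed levels of marker genes differed between the groups too. The summed level of 10 genes of the mesenchymal, substrate-adherent state of neuroblastoma was 10860 and 11380 CPM (counts scaled to library size) in the parental libraries, 3839 and 3586 in ZMYND8 OE, 5123 and 4937 in KD control, and 6657 and 6260 in ZMYND8 KD, with none of the 10 at 0. That of 7 adrenergic genes was 307 to 309.7 CPM in parental, 778.9 and 821.3 in ZMYND8 OE, 570.4 and 595.1 in KD control, and 460 and 514.4 in ZMYND8 KD. TH, the enzyme that defines catecholamine synthesis, was at 0 in all 4 libraries of the knockdown experiment and had at most 5 counts in the others. The summed level of 4 neural stem genes was 578.6 and 575.9 CPM in parental cells and 365.6 and 376.8 in ZMYND8 OE. It was 906 and 859.2 in KD control, and 909.4 and 930.1 in ZMYND8 KD. These stem genes did not move as 1 in ZMYND8 OE. By the test used below, 1 was higher than in parental cells, 1 was lower and 1 did not pass. PAX6 had too few counts to test. Of the other lists, 6 glial genes summed to at most 27.26 CPM and 5 blood and endothelial genes to at most 2.07 CPM, with HBB at 0 in every library. The part of these states in the results below was not tested.

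The RE1 element shows where REST could act on the members themselves. It was searched as TTCAGCACC, 2 free letters and GGACAGC, on both strands of GRCh38 (hg38), with up to 2 mismatches among the 16 fixed letters. Of 20033 windows of 5000 bases to each side of a protein-coding gene start, 473 (2.36%) held a match, and of as many gene bodies 1452 (7.25%) did. Of the 9 members, 1 held a match in its start window, SRRM4, and 3 in their gene bodies, SRRM4, SRRM3 and RCOR1. The members' matches are printed 5′ to 3′ on the strand of the match, with letters of the element in capitals and free or mismatched letters in lower case.
SRRM4, first exon: TTCAGCACtttGGACAGC
SRRM4, first intron: TTCAGCACCagGGACAGC
SRRM3, first intron: TcCAGCACCacGGACAGC
RCOR1, second intron: TTCAcCACCgcGGACAaC
The first lies at chr12:118981833-118981850 on the + strand, 300 bases from the start of SRRM4, in the untranslated part of exon 1, and has 1 mismatch. The second, at chr12:119061401-119061418 on the + strand, has 0 mismatches and lies in intron 1 of SRRM4, 79868 bases from the start. The match in SRRM3 is at chr7:76225553-76225570 on the - strand, in intron 1 and 23665 bases from the start, with 1 mismatch. That in RCOR1 is at chr14:102655092-102655109 on the + strand, in intron 2, with 2 mismatches. The letters of REST, RCOR2, RCOR3, SIN3A, CTDSP1 and CTDSPL held no match in either window, which says only that this element is not spelled out there. A match is a description of sequence, and no binding of REST was measured.

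ZMYND8 overexpression went with less REST RNA and with much more SRRM4, RCOR2 and SRRM3. REST was 1.53-fold lower, SRRM4 20.7-fold higher, RCOR2 13.1-fold higher and SRRM3 9.10-fold higher than in parental cells. At a Benjamini-Hochberg adjusted p below 0.05 in edgeR's quasi-likelihood test, 5 of the 9 genes were higher and 3 lower, beside 31.7% and 29.1% of the 20835 genes tested, so that a pass alone was common here. When a 1-unit change on the log2 scale and a mean above 20 normalized counts were required as well, 3 of the 9 were higher and 0 lower, beside 11.7% and 6.84% of all genes. Over the 9 genes the median log2 fold change was 0.16, beside 0.03 over all genes tested.

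**Figure D1:**
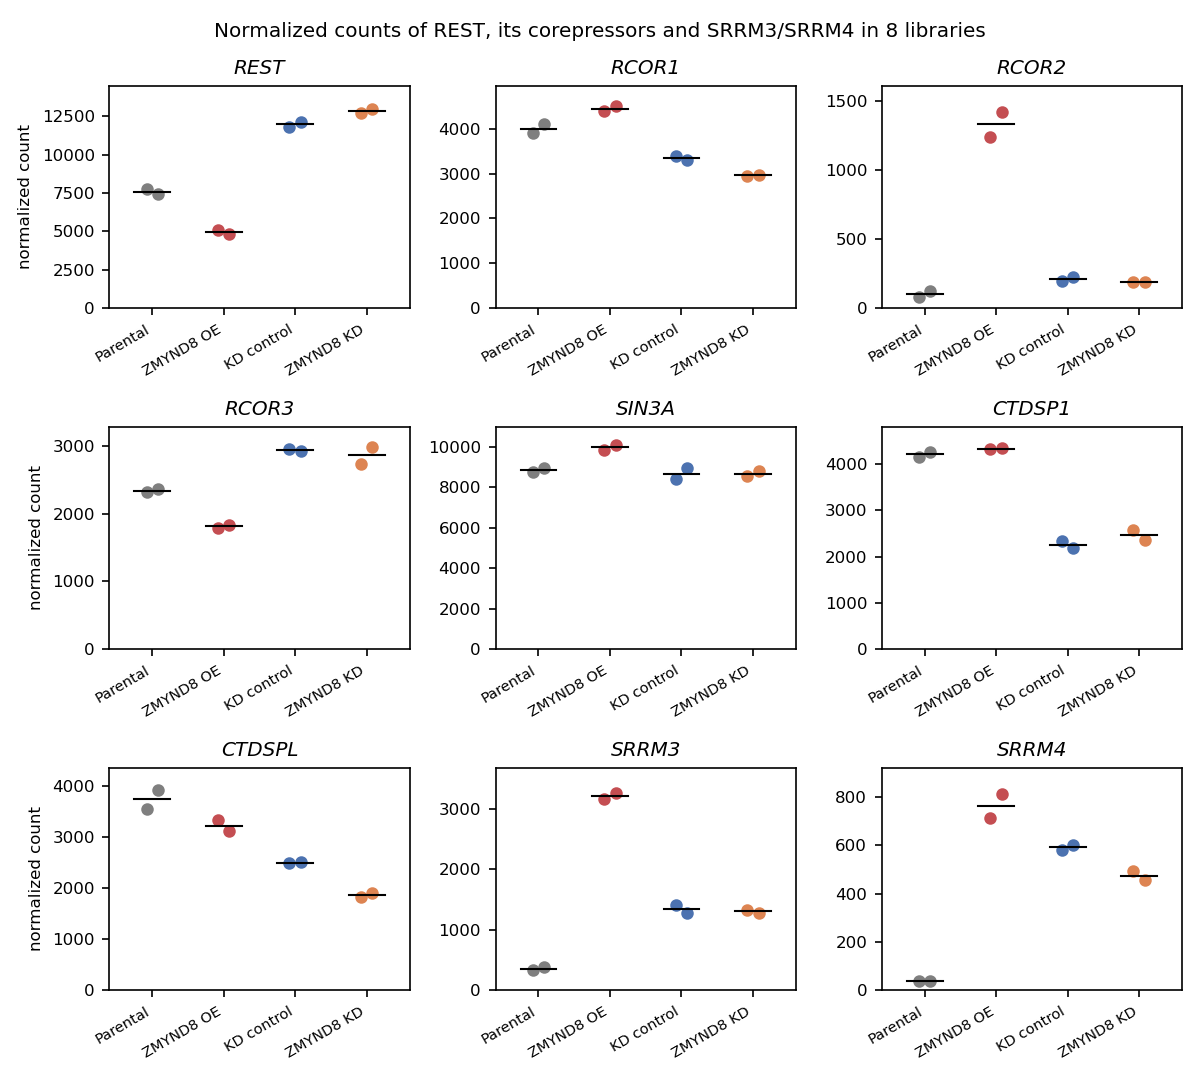
Normalized counts (vertical axes, each from 0) of the 9 genes in 8 libraries, with a point for each library and a line at the mean of each group of 2. REST was lowest in ZMYND8 OE and highest in ZMYND8 KD, while RCOR2, SRRM3 and SRRM4 were highest in ZMYND8 OE and lowest in parental cells.

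REST (ENSG00000084093) lies on chromosome 4 of GRCh38 from 56907876 to 56966808 on the + strand. Its normalized counts were 7743 and 7399.6 in the parental libraries, 5055 and 4804 in ZMYND8 OE, 11770 and 12158 in KD control, and 12715 and 12992 in ZMYND8 KD. No 2 groups overlapped, and the order from the highest was ZMYND8 KD, KD control, parental and ZMYND8 OE. Between ZMYND8 OE and parental cells REST fell by 0.61 on the log2 scale (standard error, SE, 0.051, adjusted p = 2.29e-06, edgeR). Leaving out each library in turn kept the log2 fold change between -0.64 and -0.57, and REST passed under all 13 alternatives tried. Per length, REST stood at 16.3 and 15.6 RPKM in parental cells and at 10.7 and 10.1 RPKM in ZMYND8 OE. Of its exonic bases, 0.86% also belong to NOA1 on the other strand, and the strand setting of the counting is not stated.

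SRRM4 (ENSG00000139767), the regulator that makes the REST4 form, lies on chromosome 12 from 118981541 to 119163051 on the + strand. Its normalized counts were 37.9 and 36.0 in the parental libraries, 712 and 813 in ZMYND8 OE, 581 and 602 in KD control, and 494 and 454 in ZMYND8 KD. The groups did not overlap, and parental cells stood far below the other 3 groups. Behind the parental values were 32 and 37 counts, few enough for counting error to matter, against 761 and 711 in ZMYND8 OE. The log2 fold change between ZMYND8 OE and parental cells was 4.37 (SE 0.15, adjusted p = 2.00e-09, edgeR). It is the gene that carries the first 2 matches to RE1 printed above.

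SRRM3 (ENSG00000177679), a paralog of SRRM4 that acts on many of the same short exons, lies on chromosome 7 from 76201896 to 76287288 on the + strand. It had normalized counts of 329 and 378 in the parental libraries, 3162 and 3261 in ZMYND8 OE, 1401 and 1269 in KD control, and 1324 and 1284 in ZMYND8 KD. The 2 groups of the knockdown experiment overlapped and lay between the other groups, which were apart. The log2 fold change between ZMYND8 OE and parental cells was 3.19 (SE 0.075, adjusted p = 1.76e-10, edgeR). Per length, SRRM3 was the more abundant of the pair in every library, with 0.95 and 1.09 RPKM in parental cells beside 0.06 RPKM of SRRM4 in both, and with 9.13 and 9.42 RPKM in ZMYND8 OE beside 1.16 and 1.32 RPKM of SRRM4. The ratio of SRRM3 to SRRM4 in RPKM was 15.5 and 18.6 in parental cells, 7.89 and 7.13 in ZMYND8 OE, 4.29 and 3.75 in KD control, and 4.76 and 5.02 in ZMYND8 KD.

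Set against REST in RPKM, SRRM3 and SRRM4 together amounted to 0.062 and 0.074 of the REST level in parental cells and to 0.96 and 1.06 of it in ZMYND8 OE. The ratio was 0.20 and 0.18 in KD control and 0.17 and 0.16 in ZMYND8 KD. In the overexpression experiment the repressor was thus lower where its splicing regulators were higher, but KD control cells had more of all 3 than parental cells.

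**Figure D2:**
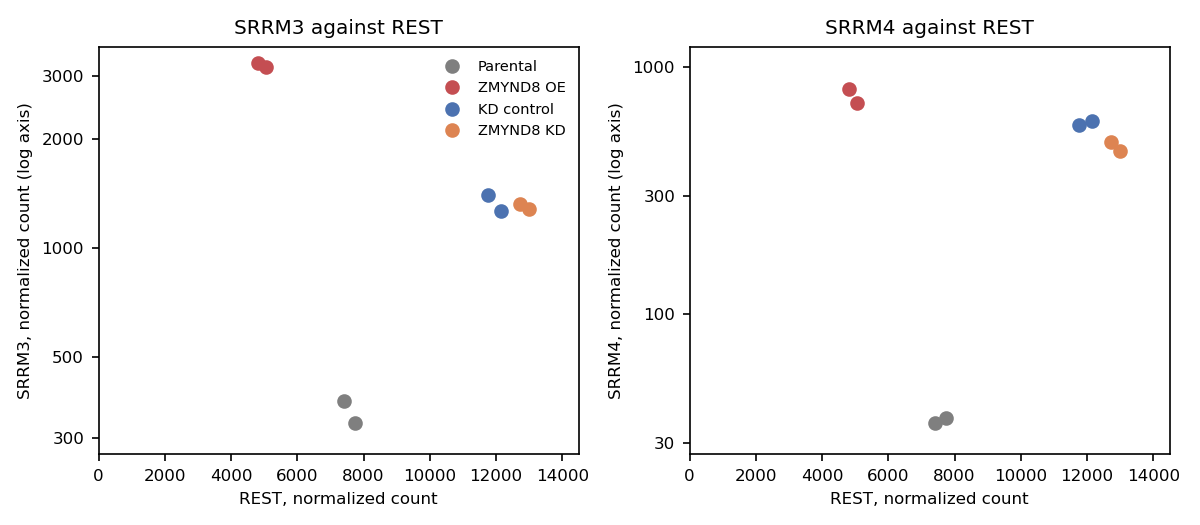
Normalized counts of SRRM3 (left) and SRRM4 (right), on log vertical axes, against those of REST, on linear horizontal axes, in 8 libraries coloured by group. ZMYND8 OE libraries lie at the upper left of both panels and parental libraries at the bottom, while the libraries of the knockdown experiment have both the highest REST and SRRM4 counts of 454 to 602.

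RCOR2 (ENSG00000167771), on chromosome 11 from 63911230 to 63917164 on the - strand, is the CoREST paralog known from stem cells and neural progenitors. It had normalized counts of 79.4 and 122 in the parental libraries, 1237 and 1419 in ZMYND8 OE, 196 and 223 in KD control, and 185 and 188 in ZMYND8 KD. Both ZMYND8 OE libraries lay above all others, and no groups overlapped. The log2 fold change between ZMYND8 OE and parental cells was 3.71 (SE 0.16, adjusted p = 9.87e-09, edgeR), and omitting single libraries moved it between 3.44 and 4.07.

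RCOR1 (ENSG00000089902), the founding CoREST scaffold, lies on chromosome 14 from 102592649 to 102730561 on the + strand. It had 3902 and 4106 normalized counts in parental cells, 4392 and 4508 in ZMYND8 OE, 3399 and 3309 in KD control, and 2952 and 2969 in ZMYND8 KD, again without overlap. The rise in ZMYND8 OE was small, with a log2 fold change of 0.16 (SE 0.051, adjusted p = 0.0193, edgeR), and the call was lost with DESeq2 (adjusted p = 0.0823) and without parental replicate 1 (log2 fold change 0.11, adjusted p = 0.213) or ZMYND8 OE replicate 2 (adjusted p = 0.0558).

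RCOR3 (ENSG00000117625), a CoREST paralog on chromosome 1 from 211258377 to 211316385 on the + strand, moved the other way. It had 2322 and 2369 normalized counts in parental cells, 1796 and 1835 in ZMYND8 OE, 2967 and 2930 in KD control, and 2746 and 2984 in ZMYND8 KD. The ZMYND8 OE libraries were the lowest, and the groups of the knockdown experiment overlapped. The fall in ZMYND8 OE was 0.36 on the log2 scale (SE 0.053, adjusted p = 1.68e-04, edgeR), and it passed under all 13 alternatives.

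Per length, the makeup of the CoREST family differed between the groups. RCOR2 made up 2.86% and 4.15% of the summed RPKM of the 3 RCOR genes in the parental libraries, 30.9% and 33.4% in ZMYND8 OE, 6.86% and 7.87% in KD control, and 7.22% and 7.11% in ZMYND8 KD. The share of RCOR1 was 69.1% and 68.8% in parental cells and 54.0% and 52.2% in ZMYND8 OE. That of RCOR3 was 28.04% and 27.1% in parental cells and 15.1% and 14.5% in ZMYND8 OE. RCOR1 was the most abundant of the 3 in every library.

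**Figure D3:**
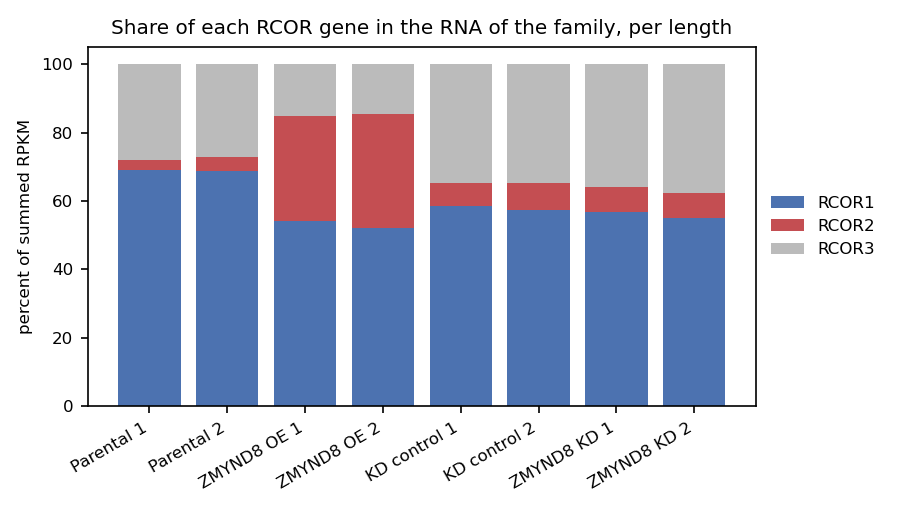
Share of RCOR1, RCOR2 and RCOR3 in their summed RPKM (vertical axis, percent) in each of 8 libraries (bars). RCOR2 takes 30.9% and 33.4% in the ZMYND8 OE libraries and at most 7.87% in the other 6.

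SIN3A (ENSG00000169375), the scaffold at the other end of REST, lies on chromosome 15 from 75369379 to 75455842 on the - strand. It had 8772 and 8972 normalized counts in parental cells, 9882 and 10098 in ZMYND8 OE, 8408 and 8975 in KD control, and 8564 and 8812 in ZMYND8 KD. Only the ZMYND8 OE libraries stood apart, and the other 3 groups overlapped. The log2 fold change in ZMYND8 OE was 0.18 (SE 0.047, adjusted p = 0.00714, edgeR), and the call was lost without parental replicate 1 (adjusted p = 0.0905) and after correction for gene length and GC content (adjusted p = 0.0577).

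CTDSP1 (ENSG00000144579), the small phosphatase on chromosome 2 from 218398256 to 218405941 on the + strand, had 4154 and 4273 normalized counts in parental cells, 4328 and 4344 in ZMYND8 OE, 2332 and 2186 in KD control, and 2575 and 2363 in ZMYND8 KD. The libraries of the overexpression experiment were high and those of the knockdown experiment low. CTDSP1 was the 1 member that did not pass in ZMYND8 OE, with a log2 fold change of 0.05 (95% interval -0.058 to 0.158, adjusted p = 0.398, edgeR). With upper quartile normalization it passed as higher. After correction for gene length and GC content it passed in the other direction (log2 fold change -0.31, adjusted p = 2.40e-04). Its exons overlap those of an antisense gene over 10.1% of their length, so reads of the pair could not be told apart without strand.

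CTDSPL (ENSG00000144677), its paralog on chromosome 3 from 37861880 to 37984469 on the + strand, had 3551 and 3924 normalized counts in parental cells, 3329 and 3115 in ZMYND8 OE, 2495 and 2502 in KD control, and 1815 and 1897 in ZMYND8 KD. The groups were ordered in that way without overlap. The fall in ZMYND8 OE was 0.21 on the log2 scale (SE 0.063, adjusted p = 0.0161, edgeR), and the call was lost with upper quartile normalization (adjusted p = 0.0913) and without parental replicate 2 (log2 fold change -0.13, adjusted p = 0.147) or ZMYND8 OE replicate 2 (adjusted p = 0.0770). The microRNA loci inside these genes had at most 6 counts of MIR26B and 2 of MIR26A1 in a library, which is too few to test.

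**Figure D4:**
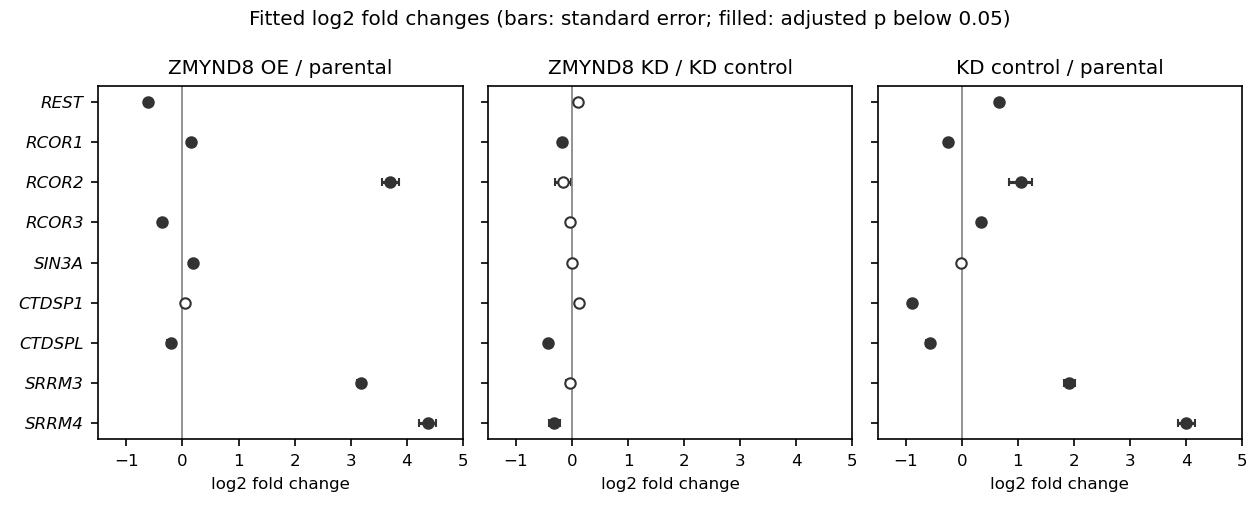
Fitted log2 fold changes (horizontal axes) of the 9 genes in 3 comparisons, with bars for the standard error and filled points for an adjusted p below 0.05 in edgeR's test. In ZMYND8 OE the values of SRRM4, RCOR2 and SRRM3 exceed 3, while in ZMYND8 KD all 9 lie between -0.43 and 0.13.

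Knockdown of ZMYND8 changed these genes little. Of the 9 genes, 0 were higher and 3 lower at an adjusted p below 0.05, beside 13.4% and 10.8% of the 19789 genes tested, and 0 reached a log2 fold change of 1 in either direction, beside 1.96% of all genes. At an unadjusted p below 0.05, too, 0 were higher and 3 lower by edgeR, and with DESeq2 1 of the 9 was lower and 0 higher after adjustment. The median over the 9 genes was -0.04, beside -0.01 over all genes tested. CTDSPL fell by 0.43 on the log2 scale (SE 0.056, adjusted p = 3.83e-04, edgeR), and it passed under all 13 alternatives. SRRM4 fell by 0.32 (SE 0.097, adjusted p = 0.0369, edgeR), and its adjusted p ranged from 0.0204 to 0.203 over the alternatives. The SRRM4 call was lost with DESeq2 (adjusted p = 0.0759), with no filter on low counts, without either KD control library and without ZMYND8 KD replicate 2. RCOR1 fell by 0.18 (SE 0.050, adjusted p = 0.0275, edgeR), and the call was lost under 6 of 13 alternatives, among them leaving out each of the 4 libraries and DESeq2 (adjusted p = 0.0593).

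REST itself did not pass in the knockdown, with a log2 fold change of 0.11 (95% interval -0.004 to 0.216, adjusted p = 0.153, edgeR), although its 2 ZMYND8 KD libraries lay above both KD control libraries. CTDSP1 had a log2 fold change of 0.13 (95% interval -0.010 to 0.274, adjusted p = 0.167). It passed with the replicate number as a block (adjusted p = 0.0381) and without ZMYND8 KD replicate 2 (adjusted p = 0.0483). RCOR2 did not pass either, with a log2 fold change of -0.17 (95% interval -0.479 to 0.146, adjusted p = 0.441), nor did RCOR3 at -0.04 (95% interval -0.164 to 0.086, adjusted p = 0.667). For SRRM3 the log2 fold change was -0.03 (95% interval -0.191 to 0.128, adjusted p = 0.801), and for SIN3A it was 0.00 (95% interval -0.116 to 0.119, adjusted p = 0.987). ZMYND8 itself was 1.92-fold lower in ZMYND8 KD against 57.9-fold higher in ZMYND8 OE, so the 2 manipulations differed greatly in size.

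The effects of overexpression and knockdown were compared in a model over all 8 libraries, as the log2 fold change of ZMYND8 OE against parental minus that of ZMYND8 KD against KD control. Of the 9 genes, 5 had a higher and 2 a lower difference at an adjusted p below 0.05, beside 24.6% and 24.4% of the 22619 genes tested. The difference was 4.68 for SRRM4 (SE 0.18, adjusted p = 2.40e-11), 3.87 for RCOR2 (SE 0.22, adjusted p = 1.74e-09) and 3.21 for SRRM3 (SE 0.11, adjusted p = 5.54e-12). It was -0.72 for REST (SE 0.072, adjusted p = 7.90e-07), -0.33 for RCOR3 (adjusted p = 0.00278) and 0.33 for RCOR1 (adjusted p = 0.00118), each by edgeR's test and each passing under all 15 alternatives. CTDSPL fell in both experiments, and its difference of 0.21 (adjusted p = 0.0493) lost the call under 11 of 15 alternatives. SIN3A (0.17, 95% interval 0.019 to 0.324, adjusted p = 0.0595) and CTDSP1 (-0.09, 95% interval -0.258 to 0.082, adjusted p = 0.394) did not pass.

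The 2 control groups were not alike in these genes. KD control and parental cells come from different experiments, and Dox is named for the parental cells only. Any difference in vector or Dox cannot be told apart from the experiment, and this comparison was made to show the baseline on which each manipulation was measured. It shares its libraries with both comparisons above. In KD control cells 5 of the 9 genes were higher and 3 lower than in parental cells, beside 33.6% and 36.2% of the 20385 genes tested, and 3 of the 9 were higher by at least 1 on the log2 scale, beside 10.8%. SRRM4 was 16.1-fold higher (log2 fold change 4.01, SE 0.15, adjusted p = 2.50e-09), SRRM3 3.78-fold higher (log2 fold change 1.92, adjusted p = 2.15e-08) and RCOR2 2.08-fold higher (log2 fold change 1.05, adjusted p = 8.17e-04) by edgeR's test. The log2 fold change of RCOR2 was 0.78 without parental replicate 1 and 0.96 without KD control replicate 2, and either ends its place among the 3 larger changes. REST was 1.59-fold higher (log2 fold change 0.67, SE 0.050, adjusted p = 5.16e-07), and RCOR3 was higher by a log2 fold change of 0.34. The RCOR3 call was lost after correction for gene length and GC content (log2 fold change 0.11, adjusted p = 0.0652). CTDSP1 fell by 0.89 on the log2 scale, CTDSPL by 0.57 and RCOR1 by 0.25. SIN3A did not pass (log2 fold change -0.02, adjusted p = 0.716), but it did, at -0.27, after that correction. SRRM4 was thus already at 581 and 602 normalized counts in the cells in which ZMYND8 was knocked down, beside 37.9 and 36.0 in the cells in which it was overexpressed.

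Among 12686 genes with a mean of at least 1 CPM, those most like REST over the 8 libraries were PRRC2C and UBA6 (both r = 0.999), PAK2 and TTC1 (both r = 0.9987) and LARP1 (r = 0.9982), by Pearson's r of log2 CPM. LARP1 encodes a translation regulator and PAK2 a kinase of the cytoskeleton. PRRC2C, for example, averaged 21989 normalized counts in parental cells, 12356 in ZMYND8 OE, 43552 in KD control and 46667 in ZMYND8 KD. Those most like SRRM4 were MYT1L (r = 0.9992), a neuronal transcription factor, GALNT14 (r = 0.9988), and HAND1, FAM221A and MAOB (each r = 0.9987). MYT1L averaged 51.5 normalized counts in parental cells, 1322 in ZMYND8 OE, 935 in KD control and 745 in ZMYND8 KD. Among the members, r with REST was -0.96 for RCOR1 and 0.98 for RCOR3, -0.27 for SRRM3 and 0.08 for SRRM4, and r between SRRM3 and SRRM4 was 0.93. These values describe 8 libraries that fall into 4 groups and share controls, so they are in effect patterns over 4 means.

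Other genes of the REST machinery were read beside the shares of all genes called. Of 26 genes for partners of the CoREST and SIN3 complexes and related enzymes, 25 were tested, since EHMT2 was listed at 0 in all libraries. Whether EHMT2 was silent or its reads went uncounted was not tested. In ZMYND8 OE 10 of the 25 (40%) were higher and 8 (32%) lower, beside 31.7% and 29.1% of all genes, none by a log2 fold change of 1, with a median of 0.07. GSE1 (log2 fold change 0.85, adjusted p = 1.06e-07), PHF21A (0.81, adjusted p = 2.71e-07), a histone reader of the KDM1A complex, and ZMYM2 (0.61, adjusted p = 1.09e-06) rose, and ARID4B (-0.51, adjusted p = 9.27e-06) and RBBP7 (-0.36, adjusted p = 8.95e-05), both of the SIN3 complex, fell by edgeR's test. In ZMYND8 KD 5 (20%) were higher and 1 (4%) lower, beside 13.4% and 10.8% of all genes, with a median of 0.06. Higher were among others KDM1A (log2 fold change 0.26, adjusted p = 0.00279), the demethylase that RCOR1 carries, and CDYL (0.26, adjusted p = 0.0119), while ZMYM2 fell by 0.20 (adjusted p = 0.0157). KDM1A had normalized counts of 5969 and 6024 in parental cells, 7457 and 7537 in ZMYND8 OE, 5881 and 5932 in KD control, and 6979 and 7130.0 in ZMYND8 KD, so both manipulated groups lay above their controls. The difference of effects was higher for 7 (28%) and lower for 10 (40%) of the 25, beside 24.6% and 24.4% of all genes. Between the control groups 9 (36%) were higher and 11 (44%) lower, beside 33.6% and 36.2%.

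Of 7 genes that act on the stability or location of REST protein, 2 (28.6%) rose and 1 (14.3%) fell in ZMYND8 OE, no larger a share than the 31.7% and 29.1% of all genes. The one that fell was USP15, a deubiquitinase that serves newly made REST (log2 fold change -0.44, adjusted p = 5.20e-05). In ZMYND8 KD 2 rose and 1 fell, beside 13.4% and 10.8% of all genes, and with so few genes a share rests on 1 or 2 of them. Of these, TERF2 (0.27, adjusted p = 0.00567), a telomere protein that shields REST, rose by the larger amount, and FBXW11, a paralog of the ligase adaptor that marks REST for degradation, fell by 0.23 (adjusted p = 0.00530). The difference of effects passed for 2 (28.6%) in each direction, beside 24.6% and 24.4%. Between the control groups 4 (57.1%) were higher and 1 (14.3%) lower in KD control cells, beside 33.6% and 36.2%. PRICKLE1, a partner of REST that affects its place in the cell, had a log2 fold change of 2.06 (adjusted p = 1.55e-10) there, and CTDSP2, a paralog of CTDSP1, one of -0.98 (adjusted p = 2.11e-08).

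Genes known as REST targets from other systems were read as a list of 40. In ZMYND8 OE, where REST was lower, 36 of 39 tested were higher and 3 lower (CHAT had too few counts), with a median log2 fold change of 3.44, or 2.99 with the 5 genes at 3 counts or fewer in parental cells set to their lower bound. These counts are 92.3% and 7.69% of those tested, beside 31.7% and 29.1% of all genes. The 5 genes at their bound entered the test only through their counts in ZMYND8 OE, so they could only be called higher. GLRA1, a glycine receptor subunit, was at least 18-fold higher. ATP2B2 (log2 fold change 5.90), GRIA2 (4.88) and SYP (4.77), genes of calcium export, glutamate reception and synaptic vesicles, were among the largest, and SCN2A (-0.79), BDNF (-0.78) and SCG2 (-0.20) fell. In ZMYND8 KD 2 of 36 were higher and 17 lower, with a median of -0.25, and without KD control replicate 2 only 9 were lower. With all libraries the shares were 5.56% higher and 47.2% lower, beside 13.4% and 10.8% of all genes. CHRM4 (-1.02, adjusted p = 0.0368), SLC18A3 (-0.61), CHGB (-0.49) and SNAP25 (-0.45) fell, and BDNF (0.46) and MMP24 (0.39) rose. In the difference of effects 34 of 40 (85.0%) were higher and 2 (5.0%) lower, beside 24.6% and 24.4% of all genes. ATP2B2 (6.33), SYP (5.09), GRIN1 (5.00) and GRIA2 (4.98) had the largest differences, with BDNF (-1.24) and SCN2A (-0.55) the lower ones. In KD control cells, where REST was higher than in parental cells, 29 of 36 targets (80.6%) were higher too and 3 (8.33%) lower. Of all genes, 33.6% were higher and 36.2% lower. The median of the targets was 2.74, or 2.49 with 2 genes at their bound. Those 2 genes entered this test only through KD control and likewise could only be called higher. CHGB and SYN1 (both 4.74), SCG3 (4.54) and STMN2 (4.40) led there, and HCN2 (-0.60), CELSR3 (-0.44) and SCN2A (-0.21) fell. The level of REST RNA and that of its listed targets thus moved apart in the overexpression experiment and together between the control groups. In the knockdown, where more targets were lower than higher, REST did not pass. Whether REST acted on these targets was not tested.

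Matches to RE1 stood in the start windows of 25 of these 40 genes, 18 of them with at most 1 mismatch, beside 0.72% of all windows at that limit. The matches of named targets that moved in opposite directions are shown to set them beside those of SRRM4. The match of SCN2A lies outside the start window, 43499 bases from the gene start. That of SNAP25 is outside only for the start used for the windows, 47285 bases away. The SNAP25 gene as counted starts at chr20:10218830, less than 5000 bases before this match. SNAP25 and GRIN1 each hold a further match, with 2 mismatches, that is not printed.
SYN1: TTCAGCACCgcGGACAGt
CHGB: gTCAGCACCgcGGACAGC
GRIN1: TTCAGCACCgcGGACAGC
SNAP25: TTCAGCACCggGGACAGC
BDNF: TTCAGCACCttGGACAGa
SCN2A: cTCAGCACCatGGACAGC
They lie at chrX:47620073-47620090 (- strand), before SYN1, at chr20:5911704-5911721 (+ strand), in the first intron of CHGB, at chr9:137139260-137139277 (+ strand), in exon 1 of GRIN1, at chr20:10219672-10219689 (+ strand), in the first intron of SNAP25, at chr11:27720679-27720696 (- strand), in an exon of BDNF, and at chr2:165238484-165238501 (+ strand), in an intron of SCN2A. BDNF and SCN2A, which fell in ZMYND8 OE, carried matches with 1 mismatch, as did SYN1 and CHGB, which rose.

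The list of 40 was chosen from knowledge, so all genes with a match of at most 1 mismatch in their start window were described as well, a choice made after seeing the data. These genes include 18 of the 40 and the member SRRM4, so the 2 lists are not independent. Of 144 such genes, 105 were tested in ZMYND8 OE. Of these, 83 (79.0%) were higher and 11 (10.5%) lower, beside 31.7% and 29.1% of all genes. Their median log2 fold change was 2.32. Some of them, such as SST (9.64) and XKR4 (10.0), were not tested in ZMYND8 KD or between the control groups. They passed the filter only through ZMYND8 OE, so they could only be called higher, and no lower bound was set for them. These genes are in the wider list below as well. In ZMYND8 KD 8 of 92 (8.70%) were higher and 20 (21.7%) lower, beside 13.4% and 10.8%, with a median of -0.11. In the difference of effects 73 of 106 (68.9%) were higher and 9 (8.49%) lower, beside 24.6% and 24.4%. Between the control groups 60 of 90 (66.7%) were higher and 13 (14.4%) lower in KD control cells, beside 33.6% and 36.2%. The median there was 1.30. With up to 2 mismatches the shifts were smaller. In ZMYND8 OE 202 of 337 (59.9%) were then higher and 69 (20.5%) lower, with a median of 0.69. In ZMYND8 KD 39 of 305 (12.8%) were higher and 57 (18.7%) lower, with a median of -0.09. Between the control groups 144 of 303 (47.5%) were higher and 98 (32.3%) lower, with a median of 0.175. The sum of adrenergic markers given above moved in the same direction as these lists, and that of mesenchymal markers in the opposite one. Of the mesenchymal genes, 10 of 10 were lower in ZMYND8 OE (median log2 fold change -1.71). In KD control cells against parental cells, 8 of 10 were lower and 2 higher. In ZMYND8 KD 6 of 10 were higher and 2 lower.

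**Figure D5:**
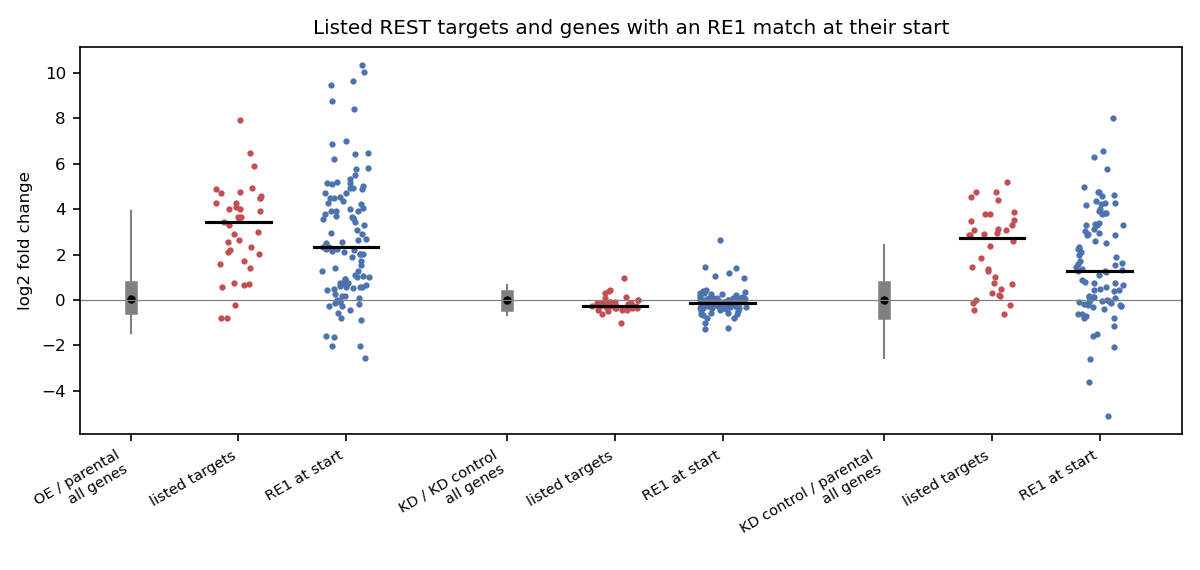
Log2 fold changes (vertical axis) of the listed REST targets and of genes with an RE1 match of at most 1 mismatch at their start, a point per gene with a line at the median, in 3 comparisons, beside all genes tested (thick bar, middle 50%; thin line, 5th to 95th percentile; point, median). The medians of the listed targets are 3.44, -0.25 and 2.74 from left to right.

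MicroRNAs that act on REST or its corepressors were covered by 3 host transcripts with enough counts. MIR124-1HG, the host of a neuronal microRNA that targets CTDSP1, had 5 and 15 counts in parental cells, 402 and 353 in ZMYND8 OE, 115 and 87 in KD control, and 93 and 104 in ZMYND8 KD. MIR9-1HG had 18 and 28, 124 and 162, 84 and 125, and 72 and 63 counts in the same order of groups, and MIR9-3HG had 29 and 31, 193 and 166, 92 and 126, and 70 and 76. All 3 were higher in ZMYND8 OE than in parental cells by edgeR's test, and 0 of 3 passed in ZMYND8 KD, where 2 of 3 were lower at an unadjusted p below 0.05 and 0 of 3 passed with DESeq2. The mature microRNAs are too short for these libraries, and the remaining 10 loci of the list had too few counts to test.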

How the data were processed

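Libraries were made from rRNA-depleted total RNA of SK-N-SH cells. The authors deposited raw counts per gene, made with featureCounts after trimming (Trim_Galore), a quality filter and Hisat2 alignment to GRCh38. GENCODE 28 is named for the counting, whereas symbols here come from GENCODE 44 (60418 of 60659 genes matched, after 3 of 60662 lines were left out). The strand setting is not given in the sources used here. Each comparison was fitted on its 4 libraries, and the difference of effects on all 8, with filterByExpr, TMM factors and the two-sided quasi-likelihood test of edgeR 4.0.16 (R 4.3.3, limma 3.58.1). Intervals are 95% intervals of the fitted log2 fold change. The adjusted p was used where the methods name p. The p-values measure the spread between 2 libraries per group, and replicates of a group differed by more than counting noise (chi-square per degree of freedom 5.52 to 7.97). The members and lists were chosen with earlier results of these data known. Outside the members, the genes named are those of each list with the largest changes in each direction among those that passed. Folds against groups at 3 counts or fewer are bounds against 3 counts per library. Likeness used log2 of CPM plus 0.01. Genomic matches were read from GRCh38. The settings varied were the normalization (RLE or upper quartile in place of TMM), the tool (DESeq2 1.42.0), the filter on low counts, the libraries fitted together (all 8) or omitted singly, a block for the replicate number, a loess correction (span 0.5) for gene length and GC content, the removal of ZMYND8 and mitochondrial genes, and thinning to equal totals. The fits were tested on simulated data. Figures were drawn with matplotlib 3.10.9.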

Additional observations from a re-analysis of the deposited data

Results flagged for a closer look

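For 7 of the 9 genes the effect of overexpression differed from that of knockdown by edgeR's test of the difference itself, over all 8 libraries, beside 24.6% of all genes with a higher and 24.4% with a lower difference. The difference of the log2 fold changes was 4.68 for SRRM4, 3.87 for RCOR2 and 3.21 for SRRM3. It was 0.33 for RCOR1 and 0.21 for CTDSPL, whose call was lost under 11 of 15 alternatives, and it was -0.72 for REST and -0.33 for RCOR3. The experiments had different controls, and in those controls SRRM4 stood at 37.9 and 36.0 normalized counts (parental) and at 581 and 602 (KD control).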

How the results depend on the processing

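With 2 libraries per group, small changes depended on single libraries. CTDSP1 in the overexpression comparison did not pass at a log2 fold change of 0.05. It passed as higher with upper quartile normalization and as lower, at -0.31, after correction for gene length and GC content. The cause was not tested. With thresholds of 1 on the log2 scale and 20 on the mean added to the adjusted p, the members called went from 8 to 3 in the overexpression comparison, from 3 to 0 in the knockdown comparison, from 7 to 3 in the difference of effects and from 8 to 3 between the control groups. In the knockdown comparison, DESeq2 and the fit with no filter on low counts each called 1 member. Leaving out each library in turn, the number of members called was 6 to 8 in the overexpression comparison, 1 to 2 in the knockdown comparison, 6 to 7 in the difference of effects and 8 between the control groups. The number of lower RE1 targets in the knockdown comparison was then 9 to 19, with 9 without KD control replicate 2. Higher targets numbered 35 to 36 in the overexpression comparison, 32 to 33 in the difference and 28 to 30 between the control groups. Over all genes, no pairing by replicate number was seen (correlation of deviations 0.0097, -0.011 and -0.028 in the 3 pairs of groups). Such a correlation cannot exclude a pairing that affects part of the genes, which was not tested. With the replicate block 8, 4, 7 and 8 members passed in the overexpression, knockdown, difference and control comparisons, and all genes passing in the knockdown comparison went from 4799 to 6318. The block let CTDSP1 pass in the knockdown comparison (adjusted p = 0.0381) and changed no other member's call. REST, RCOR2, SRRM3 and SRRM4 passed in the overexpression comparison under all 13 alternatives. SRRM4 had only 32 and 37 counts in the parental libraries. Medians of all genes moved by less than 0.1 on the log2 scale under every normalization tried.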
